A study of Mus musculus with 3 samples.

Results

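MHC class II genes and their invariant chain Cd74 were followed in single-cell libraries of mouse heart after antibody treatment. The members were taken by name: the chain genes H2-Aa, H2-Ab1 and H2-Eb1, the invariant chain gene Cd74, the exchange factor genes H2-DMa and H2-DMb1, and the master regulator Ciita. All 7 were found among the 30415 gene symbols that the 3 libraries share. Each library was made from 3 pooled hearts of NOD/SCID mice that had been injected on days 0 and 7 and whose hearts were taken on day 14. The libraries are called isotype, PD1/PEM and PDL1/ATZ after their titles. By the design text these stand for an isotype control antibody, pembrolizumab (against the receptor PD-1) and atezolizumab (against its ligand PD-L1), but the treatment tags give atezolizumab for the library titled PD1/PEM and pembrolizumab for the one titled PDL1/ATZ. The values therefore belong to libraries named by title, and which antibody stands behind each of the 2 is unresolved. The labels state neither the age nor the sex of the animals. Since each group is 1 pool in 1 library, differences have no replicate check and no test was run between groups. Intervals are at 95% and cover counting error only.

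MHC class II molecules are pairs of an alpha and a beta chain that carry peptides from swallowed proteins to the surface of antigen-presenting cells, where helper T cells read them. Cd74 escorts the new pair and blocks its groove until proteases such as cathepsin S cut it down, and the H2-DM pair then helps the last fragment leave. Ciita binds no DNA itself and switches the genes on through factors that sit on the X and Y boxes of their promoters, and interferon gamma is a known inducer of Ciita. In the heart the usual carriers of class II are resident macrophages and dendritic cells, with endothelium as an inducible carrier. All groups were on the same background: NOD mice carry their own I-A variant and make no I-E alpha chain, so H2-Eb1 has no usual partner in this strain, and the SCID defect leaves the animals without mature T and B cells. Both drugs were developed against the human proteins, and the labels do not say how well they bind those of the mouse.

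In the GENCODE annotation of GRCm38, 5 of the members lie within 1 stretch of chromosome 17. H2-DMa spans chr17:34119541-34139101, H2-DMb1 chr17:34153072-34160230, H2-Ab1 chr17:34257689-34269419 and H2-Eb1 chr17:34305867-34316674, all on the plus strand. H2-Aa spans chr17:34282744-34287823 on the minus strand. Ciita lies apart from them, at chr16:10480059-10528418 on the plus strand. Of these gene spans, 3 are overlapped by other genes, which matters for counting: H2-DMa by Brd2 on the other strand over 3094 bases and by 3 further models, H2-Eb1 by the antisense RNA Gm20513 over 2204 bases, and Ciita by Dexi on the other strand over 25888 bases. H2-DMb1 also has a near-identical neighbour, H2-DMb2, and how reads that match both were counted was not examined. H2-DMb2 held 7, 9 and 17 UMIs in the isotype, PD1/PEM and PDL1/ATZ libraries.

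RefSeq promoter windows, from 250 bases before to 50 bases after a gene's start, were in the table used here for 4 of the 7 members. They were searched on both strands for the X box core (G, any base, AAC, any 3 bases, TG) and the Y box ATTGG. Of 32851 windows of all genes, 11.6% held the core, 37.4% held ATTGG, and 0.25% held the core followed on the same strand by ATTGG that starts 10 to 30 bases after its end. The windows of H2-Eb1 and H2-DMb1 held that arrangement, as did the window of H2-Ob, another class II chaperone gene. The 100 bases before the start of H2-Eb1 (chr17:34305767-34305866, plus strand) and H2-Aa (chr17:34287824-34287923, minus strand) are shown 5′ to 3′ because they face the same Ciita machinery with and without the core as searched. Capitals mark the core and ATTGG as read on the strand shown, and matches on the other strand are not marked.
H2-Eb1: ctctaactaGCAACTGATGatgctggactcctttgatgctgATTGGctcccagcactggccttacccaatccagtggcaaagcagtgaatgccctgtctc
H2-Aa: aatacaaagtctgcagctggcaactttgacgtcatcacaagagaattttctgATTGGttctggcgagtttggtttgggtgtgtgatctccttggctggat
In H2-Eb1 the core GCAACTGATG begins 91 bases before the start and ATTGG 59 bases before it. In H2-DMb1 the core reads GTAACTGATG, 94 bases before the start, with ATTGG 61 bases before it. In H2-Aa, ATTGG lies 48 bases before the start and the searched letters of the core are not in the window. The 2 windows of H2-DMa held no core, and 1 of them held ATTGG, 198 bases before its start. A match describes letters only and is not evidence of binding.

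The number of deposited cells was 9510 for isotype, 6388 for PD1/PEM and 11599 for PDL1/ATZ, and each library held 14766346 to 16677883 UMIs, the molecular tags that mark single captured RNA molecules. Median depth was 1532, 2014 and 1010 UMIs per cell, and 23 cell barcodes were shared by the isotype and PD1/PEM libraries and 0 by the other pairs. The PDL1/ATZ library stood apart. Mitochondrially encoded genes took 7.74% of its UMIs against 26.0% and 25.9% in the others, and 2893 symbols had UMIs in it while at 0 in both other libraries, with 1942 the other way round. Different gene models in the counting and different treatment cannot be told apart in comparisons with this library. Muscle RNA was in nearly every cell: at least 2 of 12 cardiomyocyte markers were seen in every isotype and PD1/PEM cell and in 99.96% of PDL1/ATZ cells.

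Class II RNA was sparse in all 3 libraries. Over all deposited cells the 4 better detected genes, H2-Aa, H2-Ab1, H2-Eb1 and Cd74, summed to 131.0 CPM (UMIs scaled to a library total of 1000000) in the isotype library (95% interval 125.5 to 136.6), 95.6 CPM in PD1/PEM (90.6 to 100.7) and 184.6 CPM in PDL1/ATZ (177.8 to 191.6). On plain UMI totals PD1/PEM was therefore the lowest, PDL1/ATZ the highest, and no pair of these intervals overlapped. The place of PDL1/ATZ rests on that scaling: its log2 ratio to isotype for this sum was 0.50, but 0.18 with totals that leave out mitochondrial genes and -4.2e-05 with median of ratios size factors, where that of PD1/PEM was -0.45, -0.46 and -0.47. At least 1 UMI of the 4 genes was seen in 18.4%, 18.1% and 18.8% of cells. The share of cells did not follow the level. After each cell had been thinned to 700 UMIs, with 483, 133 and 413 shallower cells left out, the shares were 8.69%, 7.21% and 11.9%, in the order of the levels. In these sums, fewer cells of a type and less RNA per cell cannot be told apart.

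The invariant chain gene Cd74 gave 1122 UMIs in isotype, 672 in PD1/PEM and 1237 in PDL1/ATZ, which is 67.3, 45.5 and 81.7 CPM. Most of this came as single molecules, with 76.1%, 81.1% and 75.7% of Cd74 UMIs in cells that held exactly 1, and the richest cells held 8, 5 and 12. H2-Aa, the I-A alpha chain, gave 438, 265 and 602 UMIs, or 26.3, 18.0 and 39.8 CPM. Its partner H2-Ab1, the I-A beta chain, gave 378, 301 and 479 UMIs, or 22.7, 20.4 and 31.6 CPM. For both chains PD1/PEM was lowest and PDL1/ATZ highest, but the isotype and PD1/PEM intervals overlapped for H2-Ab1 (20.4 to 25.1 against 18.2 to 22.8 CPM) and not for H2-Aa (23.9 to 28.8 against 15.9 to 20.2 CPM).

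H2-Eb1, the I-E beta chain, gave 246, 173 and 478 UMIs in isotype, PD1/PEM and PDL1/ATZ, or 14.8, 11.7 and 31.6 CPM. Its RNA was thus present in a strain in which the chain lacks its usual partner. The overlapping antisense RNA Gm20513 held 12, 7 and 29 UMIs. The exchange factor H2-DMa was near the limit of detection in 2 libraries, with 24 UMIs in isotype and 28 in PD1/PEM, and held 152 in PDL1/ATZ. In CPM these are 1.44, 1.90 and 10.0. Its partner H2-DMb1 gave 43, 30 and 72 UMIs (2.58, 2.03 and 4.75 CPM), and no cell held more than 1. Ciita, the regulator itself, gave 55, 51 and 89 UMIs (3.30, 3.45 and 5.88 CPM). For H2-DMa, H2-DMb1 and Ciita the isotype and PD1/PEM intervals overlapped.

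**Figure D1:**
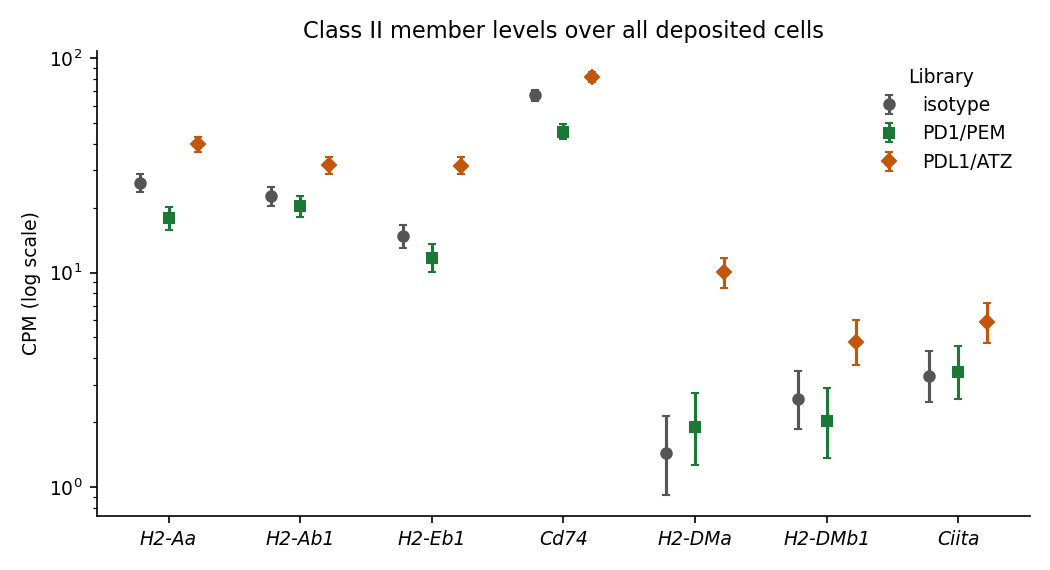
Levels of the 7 members over all deposited cells, in CPM on a log axis, 1 point per library with its exact Poisson 95% interval (counting error only). PDL1/ATZ is highest for every member, and for H2-Aa and Cd74 PD1/PEM lies below isotype with no overlap of the intervals.

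The comparison of PD1/PEM with isotype sets 1 library against 1 control library, so effects of antibody, pool and library cannot be told apart in it. Of the 7 members, 5 were lower and 2 higher in PD1/PEM (median log2 ratio -0.33, against 0.01 over 14748 genes with at least 50 UMIs in the pair). Cd74 was 1.48-fold lower (interval 1.34 to 1.63, log2 ratio -0.56) and H2-Aa 1.46-fold lower (1.25 to 1.71, log2 ratio -0.55). H2-Eb1 was 1.26-fold lower (1.03 to 1.54). After thinning to 700 UMIs per cell the log2 ratios were -0.32 for Cd74, -0.37 for H2-Aa and 0.004 for H2-Eb1, so the lower level of H2-Eb1 was not seen at equal depth. For H2-Ab1 (1.11-fold lower, 0.953 to 1.30), H2-DMb1 (1.27-fold lower, 0.778 to 2.10), Ciita (1.05-fold higher, 0.701 to 1.56) and H2-DMa (1.32-fold higher, 0.737 to 2.38) the interval included no difference. By the rule of at least 1.5-fold with an interval that excludes no difference, 0 of 7 members were lower, while 3.65% of all genes were, and 0 of 7 were higher, while 5.0% of all genes were.

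Cells with at most 25% mitochondrial UMIs numbered 2602 in isotype and 1981 in PD1/PEM, and in them 2 members passed the 1.5-fold rule. H2-Aa was 14.96 CPM in PD1/PEM against 25.2 CPM in isotype, 1.68-fold lower (1.25 to 2.28), and Cd74 37.3 against 59.1 CPM, 1.59-fold lower (1.31 to 1.92). By the same rule 4.37% of 11246 genes were lower in these cells. H2-Ab1 and H2-Eb1 did not share this. H2-Ab1 was 19.2 CPM in PD1/PEM and 19.3 CPM in isotype (1.01-fold lower, 0.750 to 1.35), and H2-Eb1 12.4 and 13.5 CPM (1.08-fold lower, 0.754 to 1.56). In the cells over that limit H2-Aa was 1.38-fold lower (1.15 to 1.66) and Cd74 1.44-fold lower (1.28 to 1.61), so both were lower on each side of the limit. Alongside, the 12 macrophage markers summed to 516 CPM in PD1/PEM over all cells, 409 CPM in isotype and 622 CPM in PDL1/ATZ, with 0 markers undetected in any library. The 12 monocyte markers summed to 665 CPM in PD1/PEM, 389 in isotype and 417 in PDL1/ATZ, and 30.9%, 12.5% and 8.29% of cells held at least 2 of them. Much of this was Nr4a1, an immediate early gene that many cell types induce. Without it the other 11 summed to 297, 231 and 264.5 CPM. Single monocyte genes differed in their order: Ccr2 held 31, 18 and 48 UMIs, highest in PDL1/ATZ. Ly6c2 held 46, 40 and 12 and Vcan 1779, 1464 and 857, both lowest in PDL1/ATZ. The 12 dendritic markers summed to 93.3, 140 and 205 CPM in PD1/PEM, isotype and PDL1/ATZ, and 860, 1792 and 2452 of those UMIs were of Zbtb46, which endothelium also expresses. Without Zbtb46 the other 11 summed to 35.0, 32.1 and 43.3 CPM, so PD1/PEM was then not below isotype. The type 1 dendritic cell genes Xcr1 and Clec9a held 4 to 9 and 26 to 78 UMIs. Of the 12, Ccr7 was at 0 in PD1/PEM. The part of these cell types in the class II difference was not tested.

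In PDL1/ATZ all 7 members were higher than in isotype, and 5 passed the 1.5-fold rule, but 48.5% of the 15496 genes tested passed it too. By the same rule 0 members were lower, where 5.18% of genes were. The median log2 ratio was 0.83 over the members and 0.58 over all genes. H2-DMa was 6.98-fold higher (4.52 to 11.2), H2-Eb1 2.14-fold (1.83 to 2.51), H2-DMb1 1.84-fold (1.25 to 2.76), Ciita 1.78-fold (1.26 to 2.54) and H2-Aa 1.51-fold (1.34 to 1.72). H2-Ab1 was 1.40-fold higher (1.22 to 1.60) and Cd74 1.21-fold (1.12 to 1.32), so these 2 lay below the median of all genes. With UMI totals that leave out mitochondrial genes, Cd74 turned to a log2 ratio of -0.04, and with size factors that centre the genes shared by all libraries the log2 ratios were -0.22 for Cd74, -0.02 for H2-Ab1, 0.10 for H2-Aa and 0.60 for H2-Eb1. Under both of these scalings 2 of 7 members passed the 1.5-fold rule upward, H2-Eb1 and H2-DMa, where 28.8% and 19.9% of all genes did, so the members' count was near that of all genes.

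H2-DMa and H2-Eb1 were therefore the members that lay furthest above isotype in PDL1/ATZ. Of all genes tested, 118 (0.761%) had a ratio at least as high as that of H2-DMa. The H2-DMa counts were spread thinly, with 148 of the 150 PDL1/ATZ cells that had any holding exactly 1 UMI. Brd2, which overlaps H2-DMa on the other strand, was 139 CPM in isotype and 111 CPM in PDL1/ATZ, lower where H2-DMa was higher. A change of gene models at this crowded locus and a change of H2-DMa RNA cannot be told apart. A pathway gene shows the same limit: Ifi30, a lysosomal enzyme that unfolds antigens, was at 0 UMIs in isotype and PD1/PEM and at 181 in PDL1/ATZ.

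**Figure D2:**
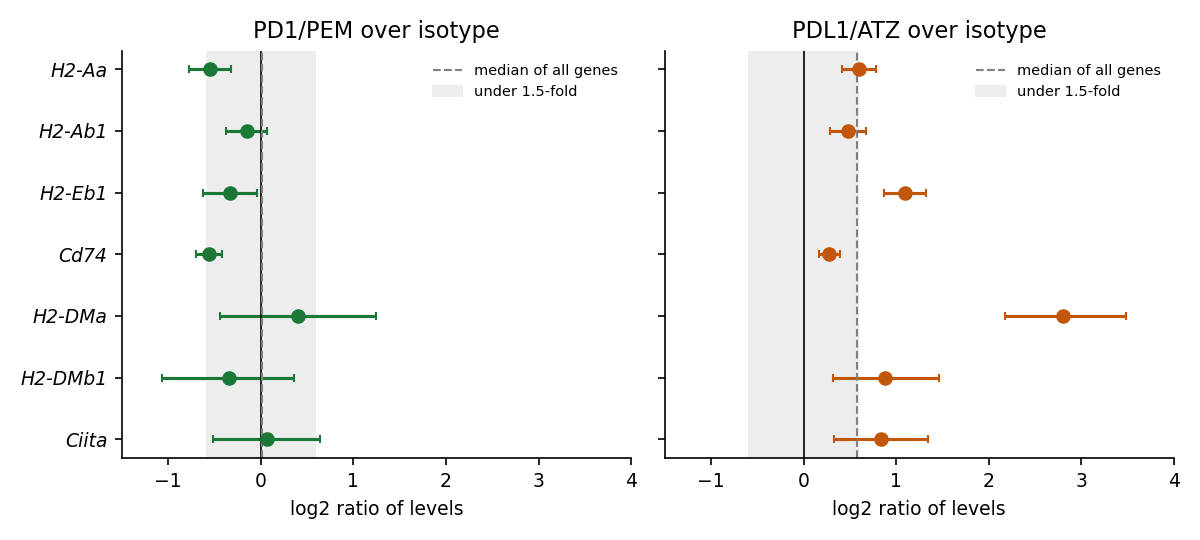
Log2 ratio of each member's level to isotype with its exact 95% interval (counting error only), for PD1/PEM on the left and PDL1/ATZ on the right. The grey band is under 1.5-fold and the dashed line is the median of all genes tested, 0.01 on the left and 0.58 on the right. Cd74 and H2-Ab1 lie left of that median in PDL1/ATZ, and H2-DMa far right of it.

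The rest of the class II pathway was read from a list of 28 genes present in the libraries. In PD1/PEM 15 of the 23 genes with enough UMIs were higher and 8 lower (median log2 ratio 0.03), and 2 passed the 1.5-fold rule, both upward, where 5.0% of all genes did. One was Cd83, whose product protects class II from the ubiquitin ligase March1, at 424 UMIs against 301 in isotype (28.7 against 18.1 CPM, 1.59-fold higher, 1.37 to 1.85). The other was Rfx5, a subunit of the factor on the X box, at 87 against 58 UMIs (5.89 against 3.48 CPM, 1.69-fold higher, 1.20 to 2.40). These 2 were higher where Cd74 and H2-Aa were lower. The rule for naming pathway genes added 4 more. Jak1, a kinase of the interferon receptors, was 1.28-fold higher (1.22 to 1.34). The receptor chain Ifngr2 was 1.35-fold lower (1.19 to 1.53), March1 1.29-fold lower (1.11 to 1.51) and the lysosomal protease Ctsd 1.21-fold lower (1.15 to 1.28). Of the other steps to Ciita, Irf1 was close to isotype at a log2 ratio of -0.04, as was Socs1 at 0.01.

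In PDL1/ATZ 18 of 24 listed genes were higher and 6 lower (median log2 ratio 0.40, below the 0.58 of all genes), and 9 passed the rule, all upward, where 48.5% of all genes did. Irf1, a transcription factor induced by interferon that acts on Ciita, lay furthest from isotype by its nearest bound, at 165 against 78.4 CPM (2.11-fold higher, 1.97 to 2.26). H2-Ob, a partner of the H2-O regulator of H2-DM, was at 50 UMIs against 20 (2.75-fold higher, 1.61 to 4.88), Rfx5 at 109 against 58 UMIs (2.07-fold higher, 1.49 to 2.90) and March1 at 630 against 406 UMIs (1.71-fold higher, 1.51 to 1.94). Creb1, which joins the X box complex, was 1.59-fold higher (1.47 to 1.72), and March8, another ligase that takes class II off the surface, was 1.59-fold higher (1.41 to 1.79). The 5 lysosomal proteases on the list were split: Ctss was 1.59-fold higher (1.33 to 1.90) and passed the rule and Ctsl was 1.34-fold higher (1.26 to 1.42), while Ctsd, Lgmn and Ctsb were 1.31-fold, 1.23-fold and 1.14-fold lower.

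Cells were next sorted by how many of 12 macrophage markers (such as C1qa, Csf1r, Adgre1 and Cd163) and 12 endothelial markers (such as Pecam1, Cdh5 and Flt1) each held. Endothelial markers separated almost nothing: at least 2 were seen in 88.8%, 96.2% and 94.99% of cells in the isotype, PD1/PEM and PDL1/ATZ libraries. At least 2 macrophage markers were seen in 12.97%, 25.2% and 13.6% of cells, and nearly all of these also held 2 endothelial markers, with 66 isotype, 21 PD1/PEM and 54 PDL1/ATZ cells that did not. Classes made in this way are therefore cells with marker RNA, not cell types.

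Cells with at least 2 macrophage markers held 22.9% of the class II UMIs (4-gene sum) of the isotype library (interval 21.2 to 24.8%), 37.6% in PD1/PEM (35.1 to 40.2%) and 26.0% in PDL1/ATZ (24.4 to 27.7%). The same cells held 17.0%, 31.4% and 18.3% of all UMIs, so class II was 1.35, 1.20 and 1.42 times its share of all RNA there. Cells with at least 2 endothelial and fewer than 2 macrophage markers held more of it in total, 71.1%, 60.1% and 70.4%, but less than their 76.9%, 67.0% and 78.7% of all UMIs (0.925, 0.898 and 0.894 times). For comparison, the cardiac muscle gene Myh6 stood at 0.976, 0.977 and 0.878 times its share in the macrophage-marker cells of isotype, PD1/PEM and PDL1/ATZ. By member, the share of Cd74 UMIs in macrophage-marker cells was 24.2%, 37.1% and 28.3%, of H2-Eb1 25.6%, 37.6% and 25.9%, of H2-Aa 19.9%, 39.3% and 25.6%, and of H2-Ab1 21.2%, 37.5% and 20.7%. H2-DMb1 had 7 of 43, 18 of 30 and 23 of 72 UMIs there, Ciita 13 of 55, 22 of 51 and 24 of 89, and H2-DMa 6 of 24, 8 of 28 and 27 of 152.

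The level of class II RNA climbed with the number of macrophage markers in a cell. In isotype the 4-gene sum was 117.8 CPM in cells with 0 markers, 126.9 with 1, 138.6 with 2, 215 with 3, 283 with 4 and 575 in the 32 cells with 5 or more (interval 427 to 758). In PDL1/ATZ the steps were 169, 164, 197, 270.1, 396 and 735 CPM, the last from 75 cells (621 to 863). In PD1/PEM they were 89.6, 84.3, 102.0, 109.5, 145 and 240.1 CPM, the last from 61 cells (179.8 to 314). From 0 to 5 or more markers this was a 4.88-fold step in isotype (3.59 to 6.48), 4.35-fold in PDL1/ATZ (3.64 to 5.16) and 2.68-fold in PD1/PEM (1.97 to 3.57). The share of cells with a class II UMI went from 16.0% to 56.3% in isotype, 15.3% to 36.1% in PD1/PEM and 17.5% to 57.3% in PDL1/ATZ, but these cells were also deeper, with medians of 1366 and 2548 UMIs at the 2 ends in isotype, 1645 and 3455 in PD1/PEM, and 930.5 and 2618 in PDL1/ATZ.

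The climb was also present at equal depth in isotype and PDL1/ATZ. At 700 UMIs per cell, class II went from 127.4 CPM at 0 markers to 446 CPM at 3 or more in isotype (214 to 821, 10 UMIs in 32 cells) and from 185 to 540.5 CPM in PDL1/ATZ (390 to 731, 42 UMIs in 111 cells). In PD1/PEM it went from 108.9 to 204 CPM, with 6 UMIs in 42 cells and an interval from 74.9 to 444 that included the level at 0 markers. Endothelial, fibroblast and mural markers gave no such climb. Dendritic, B cell and monocyte markers were not counted in this way. Over endothelial markers the isotype level lay between 101.8 and 149 CPM from 0 to 8 or more, with 134 CPM at 8 or more. In PDL1/ATZ it was 230 CPM at 1 endothelial marker and 150 CPM at 8 or more, in the opposite direction. Over fibroblast markers the isotype level lay between 119 and 143 CPM, and over mural markers between 120 and 138 CPM.

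**Figure D3:**
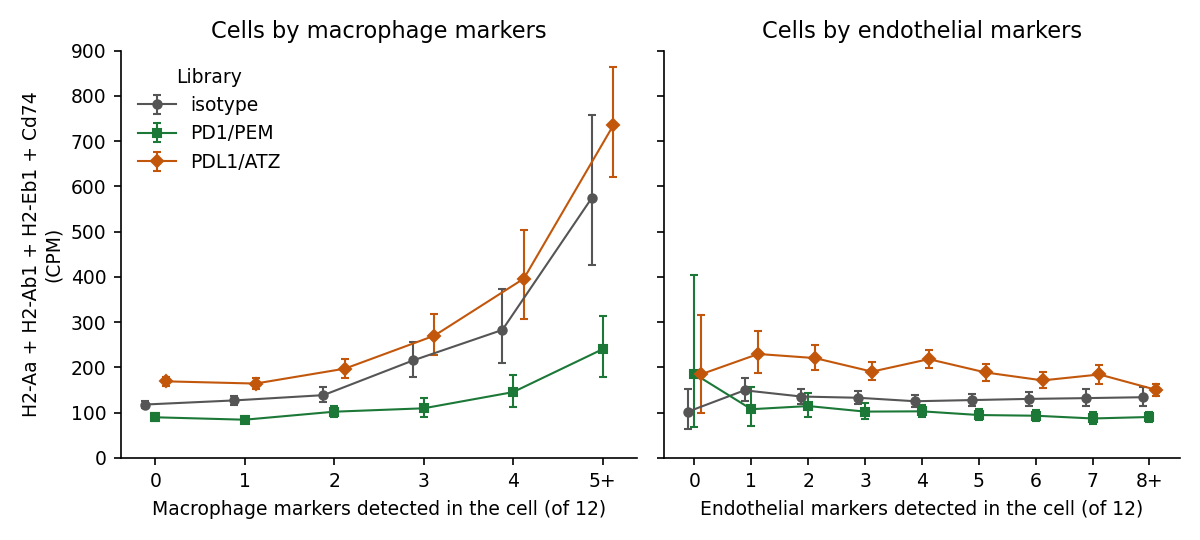
Summed level of H2-Aa, H2-Ab1, H2-Eb1 and Cd74 (CPM, exact Poisson 95% intervals for counting error) in cells grouped by how many of 12 macrophage markers (left) or 12 endothelial markers (right) they held, 1 line per library. Levels climb to 575, 240.1 and 735 CPM at 5 or more macrophage markers in isotype, PD1/PEM and PDL1/ATZ, while the right panel has no such climb.

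Cells with many macrophage markers nevertheless held little of the total. Those with 5 or more held 2.29%, 3.76% and 5.29% of the class II UMIs in isotype, PD1/PEM and PDL1/ATZ. In the same order, cells with 0 macrophage markers held 949 of 2184, 432 of 1411 and 1268 of 2796 UMIs, at the low level of 117.8, 89.6 and 169 CPM. Cd74 made up 51.6%, 48.2% and 42.7% of the 4-gene sum at 0 markers. At 4 or more markers its share was higher in each library, at 60.6% (interval 50.3 to 70.3%), 54.1% (44.8 to 63.1%) and 54.0% (47.0 to 60.8%). Only in PDL1/ATZ did the Cd74 intervals at the 2 ends not overlap. Whether the low level comes from RNA free in the suspension or from the cells themselves was not tested.

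Within cells of matched marker counts, PD1/PEM stayed below isotype. The ratio of the 4-gene level was 1.32-fold lower at 0 markers (1.17 to 1.48), 1.51-fold at 1 (1.34 to 1.70), 1.36-fold at 2 (1.15 to 1.61), 1.97-fold at 3 (1.51 to 2.56), 1.95-fold at 4 (1.32 to 2.85) and 2.39-fold at 5 or more (1.59 to 3.59). The intervals at 0 and at 5 or more markers did not overlap. PD1/PEM cells were deeper at every step, 3455 against 2548 UMIs at 5 or more, and a deeper cell shows more markers from the same RNA. At 700 UMIs per cell the levels at 3 or more markers, 204 CPM in PD1/PEM and 446 in isotype, had intervals that overlapped. Of the members at 5 or more markers, Cd74 was 333 CPM in isotype and 122 CPM in PD1/PEM (29 and 27 UMIs, 2.73-fold lower, 1.56 to 4.78), in a class where 6.12% of 915 genes passed the 1.5-fold rule downward. H2-Eb1 was 115 CPM in isotype and 45.3 CPM in PD1/PEM (10 UMIs each), H2-Ab1 80.4 and 40.8 CPM, and H2-Aa 46.0 and 31.7 CPM, with intervals of the ratio that all included no difference. Other leukocyte and lysosomal genes lay on both sides there. Ptprc was 91.9 CPM in isotype and 40.8 in PD1/PEM (2.26-fold lower, 0.757 to 6.59), Ctss 91.9 and 63.4, the membrane gene Laptm5 137.9 and 108.7, Lgmn 126.4 and 158.5, and Cd83 34.5 and 108.7, and the interval of each ratio included no difference.

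In all cells with at least 2 macrophage markers, 1233 in isotype and 1610 in PD1/PEM, Cd74 was 1.78-fold lower in PD1/PEM (1.49 to 2.12) and H2-Eb1 1.58-fold lower (1.10 to 2.27). H2-Aa was 1.36-fold lower (1.01 to 1.83) and H2-Ab1 1.16-fold lower (0.856 to 1.55). Thus 2 of the 4 members with enough UMIs passed the 1.5-fold rule, where 4.51% of 10332 genes did. In the same class of cells the protease Ctss was 18.6 CPM in PD1/PEM and 17.3 CPM in isotype, and the leukocyte gene Ptprc 24.0 and 20.8 CPM. In PDL1/ATZ the class II level in these cells was 262.6 CPM against 176.4 in isotype (1.49-fold higher, 1.33 to 1.67), with H2-Eb1 2.02-fold higher (1.48 to 2.78) and H2-Aa 1.82-fold (1.39 to 2.39), where 41.7% of 10053 genes passed upward. In the separate classes of 3, 4 and 5 or more markers the intervals included no difference, with 1.26-fold at 3 (0.981 to 1.61), 1.40-fold at 4 (0.955 to 2.07) and 1.28-fold at 5 or more (0.923 to 1.80). As 1 class of 3 or more they gave 397 against 266 CPM, 1.49-fold higher (1.26 to 1.77). These PDL1/ATZ ratios are on plain UMI totals. Over all cells the median gene was itself higher there, at a log2 ratio of 0.58. The 4-gene sum over all cells went from 0.50 to -4.2e-05 with median of ratios scaling. That scaling was not run within the marker classes, so a rise particular to class II is not shown.

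**Figure D4:**
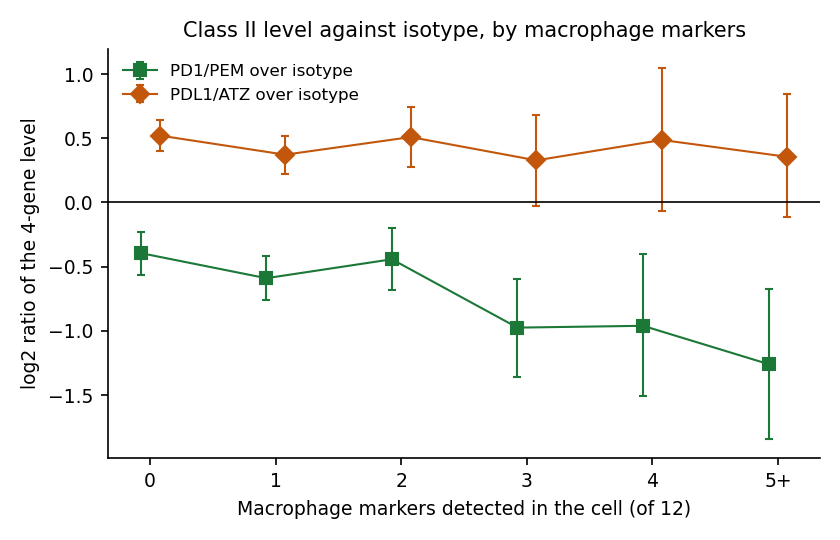
Log2 ratio of the 4-gene class II level to isotype in cells with the same number of macrophage markers, for PD1/PEM (squares) and PDL1/ATZ (diamonds), with exact 95% intervals for counting error. PD1/PEM lies below 0 at every step, by 1.32-fold at 0 markers and 2.39-fold at 5 or more. PDL1/ATZ lies above 0, with intervals that reach 0 from 3 markers on. Levels are on plain UMI totals, on which the median of all genes in PDL1/ATZ was 0.58 over all cells.

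To see which members went with macrophage markers, the UMIs in cells with 5 or more of them were summed over the libraries and set against the number that the level at 0 markers in the same library gives. Cd74 had 135 UMIs where 29.4 stood at that level (4.60 times, interval 3.86 to 5.44), H2-Eb1 43 (4.46 times, 3.23 to 6.002), H2-Ab1 36 (2.94 times, 2.06 to 4.07) and H2-Aa 37 (2.88 times, 2.03 to 3.97). H2-DMb1 had the highest ratio of the members, but from 8 UMIs (6.81 times, 2.94 to 13.4), and its interval overlapped those of Cd74 and H2-Eb1. In PD1/PEM its 4 UMIs were set against a level that rests on 3 UMIs at 0 markers. For isotype alone (0.883 to 31.1) and PDL1/ATZ alone (0.297 to 10.15) the interval included no difference. H2-DMa and Ciita had 3 UMIs each, 1.24 times (0.255 to 3.61) and 1.59 times (0.329 to 4.66), so a climb was not detectable for them at this depth. Among pathway genes the steps were 7.10 times for the protease Ctss (5.31 to 9.32), 6.33 for Cd83 (4.94 to 7.98), 3.45 for Lgmn (2.69 to 4.35), 2.67 for Ctsb (2.34 to 3.04) and 2.47 for March1 (1.70 to 3.46). Ctsl, a cathepsin that acts on the invariant chain in thymic epithelium, stood at 0.948 times (0.739 to 1.20) and Irf1 at 1.09. The leukocyte genes Ptprc, Tyrobp and Laptm5, which are not among the markers, stood at 4.76, 5.99 and 6.28 times, the endothelial Flt1 and the fibroblast Dcn at 0.935 and 0.933, and Myh6 at 0.712.

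**Figure D5:**
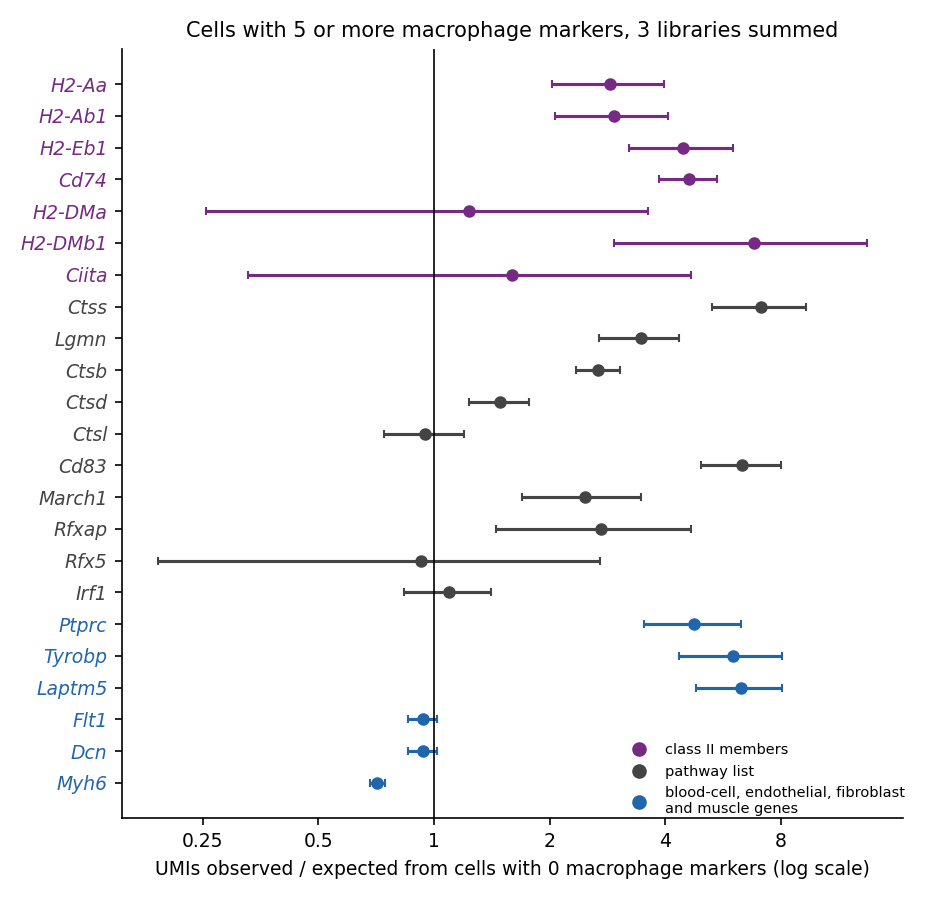
UMIs in cells with 5 or more macrophage markers divided by the number given by the level in cells with 0 markers, libraries summed after setting each against itself, with exact Poisson 95% intervals on a log axis. The 4 well detected class II genes lie between 2.88 and 4.60, beside Ctss, Cd83 and the leukocyte genes, while Flt1, Dcn and Myh6 lie at or under 1 and H2-DMa and Ciita have wide intervals across 1.

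Single cells with much class II RNA were few. At least 5 UMIs of the 4 genes were found in 17 cells of the isotype library, 7 of PD1/PEM and 32 of PDL1/ATZ, and the richest single cell held 10, 13 and 20 UMIs. Of these, 11, 6 and 27 held at least 2 macrophage markers (64.7%, 85.7% and 84.4%, against 12.97%, 25.2% and 13.6% of all cells). For 12 monocyte markers it was 7, 5 and 6 (41.2%, 71.4% and 18.75%, against 12.5%, 30.9% and 8.29%). At least 2 of 12 dendritic markers were held by 1, 0 and 5 (5.88%, 0% and 15.6%, against 1.08%, 1.36% and 1.405%). For 12 B cell markers it was 0, 2 and 6 (0%, 28.6% and 18.75%, against 1.80%, 4.16% and 4.87%). The rise was thus not particular to macrophage markers. The cells with at least 5 class II UMIs were deeper than the rest, with median UMIs of 2810, 3641 and 2706. Of 12 B cell markers the light chain gene Igkc was at 0 in every library, and Cd79a, a chain of the B cell receptor, held 18, 14 and 19 UMIs. The summed B cell list was nearly all Ebf1, at 7961, 12102 and 26037 UMIs, a factor that stromal cells also express. Without Ebf1 the other 11 summed to 18.5, 21.9 and 49.3 CPM in isotype, PD1/PEM and PDL1/ATZ. Bank1 held 112, 162 and 450 UMIs, and Ms4a1 held 15, 6 and 45 and the heavy chain gene Ighm 33, 53 and 80. Not all of the 11 rose: Cd22 held 13, 9 and 7, Blk 40, 29 and 42, Fcer2a 15, 11 and 17 and Cd79b 4, 7 and 5. The sum of these 11 was highest in PDL1/ATZ, where Bank1 made up 450 of 747 UMIs. That library also had the highest class II sum on plain UMI totals, but 48.5% of all genes tested passed the 1.5-fold rule upward in it. The part of B cell RNA in the class II level was not tested.

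Cells with at least 2 different class II genes of the 4 numbered 189, 123 and 270. By a fixed rule, 15 genes were named for the highest ratio to the other cells of the same library, each ranked by its lowest interval bound in the 3 libraries. They were Cyth4, Cd300c2, Ikzf1, Adgre1, Arhgap15, Lyz2, C1qa, Ccl9, Slc9a9, Lyn, Apoe, Maf, Laptm5, Sla and C1qb. Adgre1, C1qa and C1qb are macrophage markers of the list used above. Cyth4, a GTPase exchange factor of leukocytes, led with 4.21-fold in isotype (2.24 to 7.35), 3.53-fold in PD1/PEM (1.84 to 6.24) and 2.81-fold in PDL1/ATZ (1.57 to 4.70). Ikzf1, the lymphoid and myeloid factor Ikaros, was 3.09-fold, 3.99-fold and 3.21-fold higher, and Lyz2, lysozyme of myeloid cells, 2.19-fold, 1.61-fold and 1.77-fold. The members outside the 4 differed here: H2-DMb1 was 5.81-fold, 5.77-fold and 5.87-fold higher in these cells (6, 4 and 12 UMIs), and Ciita 2.07-fold, 2.34-fold and 5.48-fold (3, 3 and 14 UMIs), with an interval that excluded no difference only in PDL1/ATZ (2.86 to 9.77). H2-DMa had 0, 2 and 11 UMIs there, the last 2.29-fold higher (1.12 to 4.22).

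Genes whose level went with class II across 18 classes of cells (6 marker classes in 3 libraries) were sought by the same kind of rule, and the result rests on sparse classes. The 10 with the highest Pearson correlation, Eif3h, Ndufa13, Stk10, Eif3j1, Ncoa3, Eef1b2, Fgfr2, Clock, Pik3ca and Fam193a, reached 0.990 to 0.993, in the company of mesothelial classes of 1, 2 and 8 cells, of which 2 had 0 class II UMIs. Over the 15 classes of at least 20 cells, a limit set after this was seen, the same 10 lay between 0.678 and 0.832, and of the 10 highest there, led by Psmb1 at 0.874, only Ndufa13 was shared. The points share libraries and depth, and these correlations are a description only.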

How the data were processed

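Per the labels' protocols, hearts were digested and captured with 10x Genomics Single Cell 3′ v3.1 chemistry, which counts molecules at the 3′ end, so levels were not compared between genes. Per the submitters' processing notes, the tools were Cell Ranger and Seurat and the build mm10; their versions and the annotation: not given in the sources used here. Deposited values are counts (UMIs of a gene in a cell, as whole numbers), with no normalisation by the authors. All deposited cells were used.

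UMIs were summed per library or class and divided by the UMI total of the same cells (CPM). Sums have exact Poisson, shares exact Clopper-Pearson and ratios exact conditional binomial intervals at 95%. A gene was counted as apart at 1.5-fold with an interval excluding no difference, among genes with at least 50 UMIs in the pair. For PDL1/ATZ, symbols at 0 in it or in both other libraries were left out. Log2 ratios use a pseudocount of 0.5 UMI. Cells were thinned to 700 UMIs with a fixed seed. Doublets were kept; in an alternative, the top-scoring 0.8% per 1000 cells (724, 326 and 1076 cells) were removed with scanpy 1.11.5. Other tools were Python 3.11.15, numpy 2.4.6 and scipy 1.17.1. The ratio step was tested on simulated counts.

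The genes named were all 7 members, up to 6 pathway genes with the furthest nearest bound, 10 by correlation and 15 by ratio in class II cells; other pathway and comparison genes were named after their values were seen. A gene of the pathway list is counted with it, but its own values are not reported here. The members and lists were chosen with earlier results of these data known. Counting by the number of markers was added after the data were seen. Promoter sequences are RefSeq's (GRCm38.p6); positions are GENCODE's.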

Additional observations from a re-analysis of the deposited data

How the results depend on the processing

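No paired analysis was possible because each group is 1 library and the labels carry no replicate numbers. For the 7 members in 2 comparisons, 71 of 84 log2 ratios under other settings stayed within the counting interval of the reported value and 13 left it. These were 4 with UMI totals without mitochondrial genes, 4 with median of ratios scaling, 3 after thinning and 2 in cells with at most 25% mitochondrial UMIs. The 3 after thinning were Cd74, H2-Eb1 and H2-DMa in PD1/PEM. Of the 71 that stayed, 14 came from a pseudocount of 1 UMI, which hardly moves ratios at these counts. No called member changed direction, but in PD1/PEM 0 were called. The number of members at least 1.5-fold apart in PD1/PEM went from 0 of 7 to 2 of the 4 tested in cells with at most 25% mitochondrial UMIs, and stayed at 0 under the other settings run. In PDL1/ATZ it went from 5 of 7 to 2 of 7 without mitochondrial genes in the total (28.8% of all genes passed upward), with median of ratios scaling (19.9%) and with a 2-fold rule (25%), and to 2 of the 4 members tested with a minimum of 200 UMIs (44.5%). The log2 ratio of the 4-gene sum went from -0.45 to -0.28 after thinning in PD1/PEM, and in PDL1/ATZ from 0.50 to 0.66 in cells with at most 25% mitochondrial UMIs, 0.18 without mitochondrial genes and -4.2e-05 with median of ratios scaling.

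The share of class II UMIs in macrophage-marker cells follows the gate. It was 56.6%, 69.4% and 54.7% (isotype, PD1/PEM, PDL1/ATZ) at 1 or more markers, 10.3%, 16.5% and 12.9% at 3 or more, 2.29%, 3.76% and 5.29% at 5 or more, and 6.21%, 5.74% and 10.5% after thinning; in isotype cells with at most 25% mitochondrial UMIs it was 25.3%. Class II stood at 1.03 to 4.39 times its share of all UMIs in these settings. In PD1/PEM the interval included the share of all UMIs at 1 or more markers (66.9 to 71.8% against 67.4%) and after thinning (3.85 to 8.19% against 4.88%). The endothelial share was 42.8%, 30.3% and 45.1% at 1 or more markers, 76.4% and 76.2% in PD1/PEM and PDL1/ATZ at 3 or more, and 56.8% and 76.7% in isotype and PDL1/ATZ after thinning. The class II level in macrophage-marker cells was 266, 136 and 397 CPM at 3 or more markers, 575, 240.1 and 735 CPM at 5 or more, 157.7 and 97.0 CPM in isotype and PD1/PEM cells with at most 25% mitochondrial UMIs, and 267.7, 27.8 and 204.8 CPM without cells that also held endothelial markers, a class of 66 cells in isotype and 21 cells with 1 class II UMI in PD1/PEM. In that last class PDL1/ATZ lay below isotype, but from 10 and 26 UMIs, with intervals that overlapped (98.2 to 377 against 175 to 392 CPM). Removing marked doublets changed no count by over 1.5 times. H2-DMa, H2-DMb1 and Ciita had only 24 to 152 UMIs per library. In PD1/PEM their intervals were 0.737 to 2.38 (fold higher), 0.778 to 2.10 (fold lower) and 0.701 to 1.56 (fold higher). Each of these held both no difference and a 1.5-fold difference, so a difference of that size could be missed.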
